A study of Mus musculus with 45 samples.

Results

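The MHC class II presentation genes are 10 genes of the 55450 in the table of this series. They were chosen by symbol as the class II chains H2-Aa, H2-Ab1 and H2-Eb1, the peptide editors H2-DMa, H2-DMb1, H2-DMb2, H2-Oa and H2-Ob, the invariant chain gene Cd74 and the regulator gene Ciita, and all 10 were found. No measured value was a criterion of that choice, but earlier results of these data were known when it was made. All 10 passed the low-count filter of every comparison given here.

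MHC class II molecules are surface heterodimers that show peptides from endocytosed proteins to CD4 T cells, and a B cell needs them to receive help from T follicular helper (Tfh) cells in the germinal center (GC). New class II dimers are held by the invariant chain, a fragment of which stays in the groove until DM exchanges it for antigenic peptide, while DO binds DM and restrains it, chiefly in B cells. CIITA is the coactivator without which the class II chain genes are hardly transcribed. It is recruited by the RFX, CREB and NF-Y proteins on the X and Y boxes of class II promoters, and activated mouse T cells, unlike human ones, are known to make little class II of their own.

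RNA was sequenced from 45 samples of lymphocytes sorted from the draining lymph nodes (dLN) of S1PR4-/- mice and of their wild-type (WT) littermates. Both came from the B6.129P2-S1pr4tm1Dgen/J line, backcrossed to C57BL/6 for at least 10 generations, and male and female mice of 8 to 12 weeks were used. All mice received 20 µL of incomplete Freund's adjuvant with 50 µg ovalbumin and 5 µg LPS in the hind footpad, so no group was without immunization. GC B cells (B220+ GL7+ Fas+; 6 WT and 6 S1PR4-/- samples) and non-GC B cells (B220+ GL7- Fas-; 5 WT and 4 S1PR4-/- samples) were sorted on day 9. Tfh cells (TCRβ+ CD4+ PD1+ CXCR5+) and non-Tfh cells (TCRβ+ CD4+ PD1- CXCR5-), with 6 WT and 6 S1PR4-/- samples each, were sorted on day 6, so that cell lineage and day of sort cannot be told apart. The deletion is in all cells of the mouse. The study's methods give 6 WT and 6 S1PR4-/- mice for the sorts. The sources used here do not tie single samples to single mice, so p-values measure the spread between these samples.

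Depth lay between 26299429 and 45548215 expected counts per sample. The targeted gene S1pr4 had 505 to 6305 expected counts in the WT samples and 0 to 40 in the S1PR4-/- samples. Against non-GC B cells, the GC B sort of WT mice had 6 of 6 germinal center markers higher and 10 of 12 general B cell markers lower. The Tfh sort had 6 of 6 Tfh markers higher than the non-Tfh sort in WT mice. Levels below are CPM, counts scaled to library size with TMM factors. A gene was called changed at a false discovery rate (FDR) under 0.05 with a fold change over 1.5, and all adjusted p are from edgeR's quasi-likelihood test with Benjamini-Hochberg adjustment over all genes tested.

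In mm10 with the GENCODE M21 annotation the 8 H2 genes lie together on chromosome 17, between H2-Oa (chr17:34092340-34095234, plus strand) and H2-Eb1 (chr17:34305867-34316674, plus strand). Ciita is at chr16:10480059-10528418 on the plus strand. All members are protein-coding, and values here are sums over each whole gene.

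Promoter sequence is shown because CIITA acts through the X and Y boxes of class II promoters. In RefSeq windows from 250 bases before to 50 after the start (GRCm38.p6), both strands were searched for the Y box letters GATTGG and the X box core AACNNNTGA, which do not overlap each other. Entries were matched for 7 members, while H2-Ab1 and Ciita had none and Cd74 was left out of the search. Of all 32544 promoter windows, 16.1% held the Y letters, 11.7% the X letters and 0.0891% an X followed 10 to 25 bases later by a Y on the same strand. Such a pair was found in H2-Eb1, H2-DMb1, H2-DMb2 and H2-Ob, with gaps of 20, 21, 21 and 18 bases. Stretches of 57 bases from 5 members are given 5′ to 3′ on the gene's strand, with the X and Y letters in capitals.
H2-Eb1, chr17:34305762-34305818, plus strand: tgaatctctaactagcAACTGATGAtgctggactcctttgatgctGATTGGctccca
H2-DMb2, chr17:34145113-34145169, plus strand: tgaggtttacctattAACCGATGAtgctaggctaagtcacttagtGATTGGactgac
H2-Ob, chr17:34238802-34238858, plus strand: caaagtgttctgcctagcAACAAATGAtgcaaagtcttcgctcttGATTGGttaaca
H2-Aa, chr17:34287861-34287917, minus strand: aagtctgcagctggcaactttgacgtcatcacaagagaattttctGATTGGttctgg
H2-Oa, chr17:34092290-34092346, plus strand: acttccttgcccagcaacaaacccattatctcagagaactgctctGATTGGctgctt
H2-Aa and H2-Oa held the Y letters with no match to this X core. The X letters are a fixed pattern with set spacing, so no match does not show that an X box is absent. H2-DMa had 2 entries, 1 with the Y letters alone and 1 with neither motif. The letters are a description of these windows and say nothing of what was bound in the sorted cells.

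The 10 genes took a large part of all counts in B cells and a very small part in T cells. Their summed share was 6.67% ± 0.498 (SD, n = 5) in WT non-GC B cells and 3.13% ± 0.6 (n = 6) in WT GC B cells. It was 0.101% ± 0.0389 (n = 6) in WT Tfh cells and 0.0288% ± 0.00733 (n = 6) in WT non-Tfh cells. In S1PR4-/- mice the shares were 6.88% ± 0.347 (n = 4) in non-GC B, 2.84% ± 0.486 (n = 6) in GC B, 0.064% ± 0.0381 (n = 6) in Tfh and 0.0204% ± 0.00214 (n = 6) in non-Tfh cells.

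**Figure D1:**
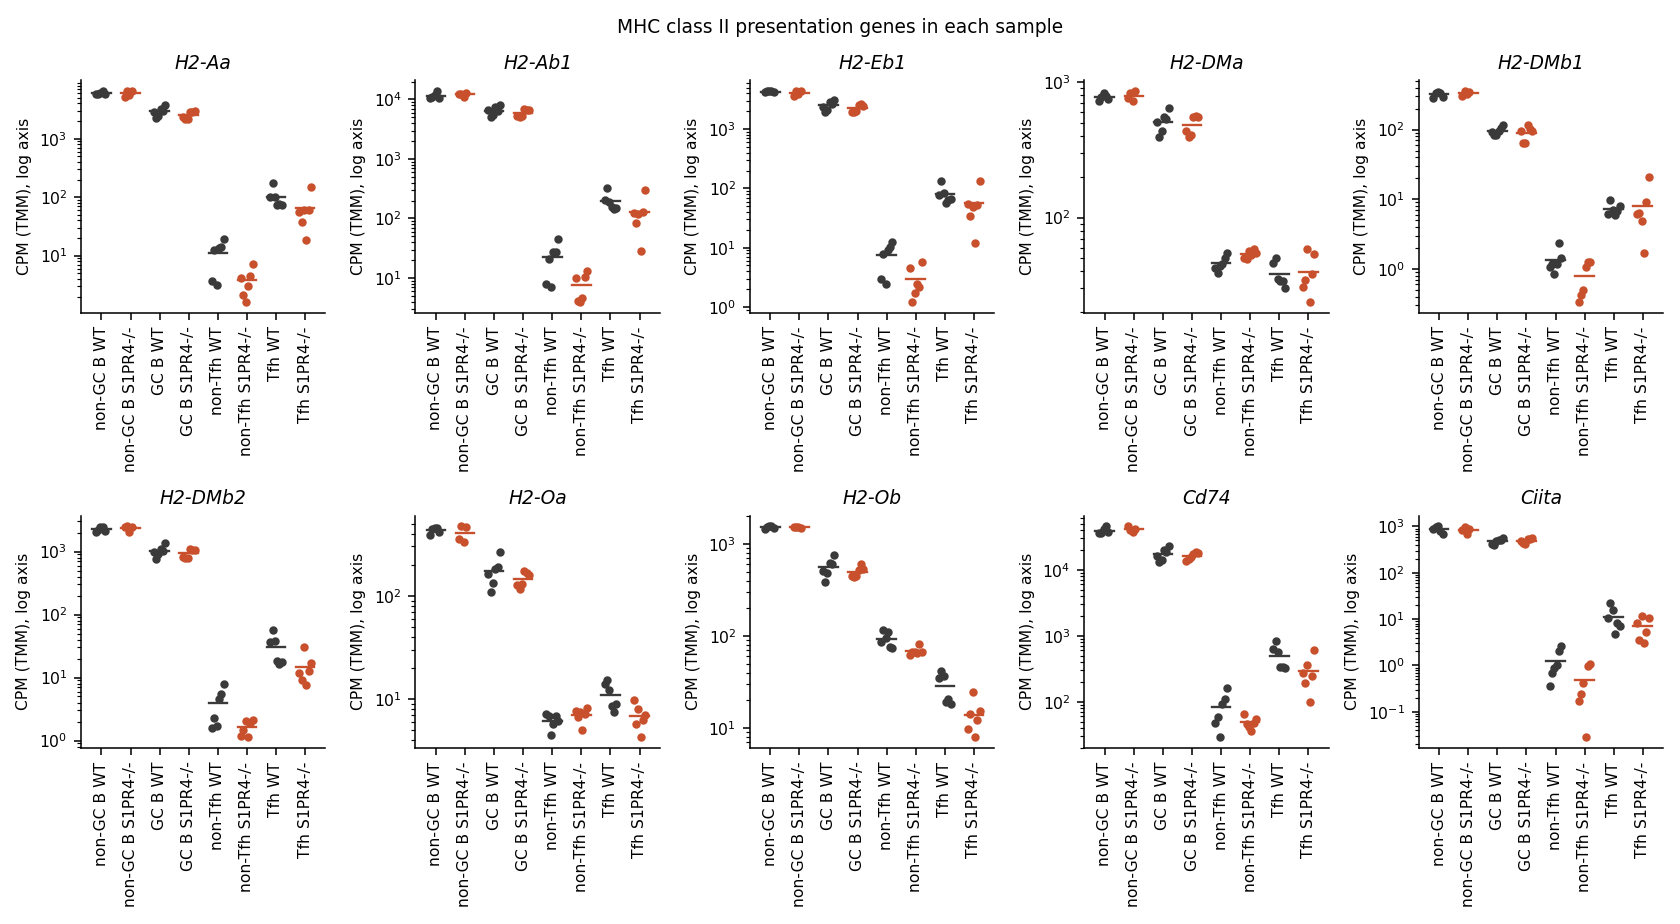
CPM of each of the 10 genes (log axis) in every sample of the 8 groups, where points are samples and the horizontal line is the group mean. H2-Aa runs from 5247 to 6586 CPM in non-GC B cells, from 2189 to 3754 in GC B cells, from 18.3 to 172 in Tfh cells and from 1.61 to 19.5 in non-Tfh cells, while H2-DMa stays within 23.8 to 58.9 CPM across the T cell samples.

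Per kilobase of exon, Cd74 was the most abundant member in every WT population. In WT non-GC B cells its level was 23412 ± 2443 CPM per kb (SD, n = 5), followed by the class II β chain H2-Ab1 at 4537 ± 550, the β chain H2-Eb1 at 2211 ± 41.6, the α chain H2-Aa at 1577 ± 81.4 and the DM β chain H2-DMb2 at 1293 ± 118. The editors H2-Oa (304 ± 19.8), H2-Ob (283 ± 8.36), H2-DMa (224 ± 10.7) and H2-DMb1 (191 ± 16.7) came next and Ciita was lowest at 91.9 ± 13.1 CPM per kb. The SDs of the neighbours H2-Oa and H2-Ob overlapped.

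In WT GC B cells the leading 5 genes kept this order, from 10408 CPM per kb for Cd74 to 582 for H2-DMb2. H2-DMa stood at 148 ± 25.4 CPM per kb, before H2-Oa at 124 ± 38.3 and H2-Ob at 104 ± 23.9, and these neighbours did not differ beyond their SDs. In WT non-Tfh cells the order was different, with H2-Ob (17.3 ± 3.11 CPM per kb) and H2-DMa (13.3 ± 1.63) directly after Cd74 (49.6 ± 28.5) and ahead of H2-Ab1 (8.75 ± 5.46). In WT Tfh cells H2-Ob was at 5.28 ± 1.92 CPM per kb, below the class II chains and both H2-DMa (11.1 ± 2.33) and H2-Oa (7.9).

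The first comparison asked how class II genes differ between B cells inside and outside the germinal center. In WT mice 9 of the 10 genes were lower in GC B cells and none was higher, against a background of 22.9% of 13324 genes called lower. In S1PR4-/- mice all 10 were lower, against 22.8% of 13484 genes. The median log2 fold change over the members was -1.03 in WT mice, beside 0.0021 over all genes tested, and -1.21 in S1PR4-/- mice. Every GC B sample lay below every non-GC B sample of the same genotype for each of the 10 genes. Of 16200 genes, 43.1% in WT and 45.5% in S1PR4-/- mice had no overlap in either direction, so absence of overlap was common, beside the 22.9% and 22.8% called lower.

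Among the class II chains, H2-Aa had 5744, 5772, 6128, 6472 and 5837 CPM in the 5 WT non-GC B samples. In the 6 WT GC B samples it had a lowest value of 2264, a median of 2942 and a highest of 3754 CPM. The lower group thus ended well short of the higher one, with a log2 fold change of -0.97 (SE 0.11, adjusted p = 6.14e-06). H2-Ab1, the partner β chain of H2-Aa, went from 11650 ± 1413 to 6519 ± 1161 CPM (log2 fold change -0.78), and H2-Eb1, a β chain of the second isotype, from 4298 ± 81.0 to 2510 ± 449 CPM (-0.71, adjusted p = 5.75e-05). C57BL/6 mice carry a defective α chain gene for that isotype, and H2-Ea-ps was at 0 in all T cell samples and at most 0.445 CPM in B cells. H2-Eb2, a related β chain gene outside the members, had 58.2 ± 7.8 CPM in WT non-GC B cells and 45.5 ± 6.8 in WT GC B cells (log2 fold change -0.29, adjusted p = 0.0366) and did not reach the fold threshold.

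H2-DMb1, a β chain of the DM editor, had the largest fold change in both genotypes. It had 288, 335, 350, 340 and 295 CPM in the WT non-GC B samples, and 82.9 at lowest, 92.9 at the median and 117 at highest in the WT GC B samples. Its log2 fold change was -1.69 (SE 0.09, adjusted p = 1.14e-08) in WT and -1.83 (adjusted p = 1.82e-06) in S1PR4-/- mice. H2-DMb2, the neighbouring DM β chain gene, changed by -1.09 and -1.27. These genes share 517 stretches of 31 bases, which is 31.4% of those in H2-DMb1 and 29.7% of those in H2-DMb2, so the division of their reads is uncertain. The ratio of H2-DMb2 to H2-DMb1 CPM was 7.03 ± 0.341 (n = 5) in WT non-GC B and 10.6 ± 1.02 (n = 6) in WT GC B cells.

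H2-DMa, the DM α chain, had the smallest difference. Its values were 729, 773, 824, 787 and 747 CPM in WT non-GC B cells and 396 at lowest, 521 at the median and 640 at highest in WT GC B cells. The groups did not overlap, but the log2 fold change of -0.53 (SE 0.10, adjusted p = 0.000472) was under the fold threshold in WT mice, while -0.65 (adjusted p = 0.000632) passed it in S1PR4-/- mice. Brd2, a chromatin reader gene on the opposite strand, shares 360 exon bases with H2-DMa (10.4% of its exons), and since the strand setting of the counting is not stated, reads there cannot be told apart. Brd2 had a mean of 339 CPM in WT non-GC B and 296 CPM in WT GC B cells.

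Both DO genes were called lower. H2-Ob, the DO β chain, had 1454, 1516, 1565, 1561 and 1512 CPM in WT non-GC B cells, and 388, 560 and 760 CPM as lowest, median and highest in WT GC B cells. The fall on the log2 scale was -1.37 (SE 0.13, adjusted p = 9.61e-07) in WT and -1.55 (adjusted p = 7.48e-08) in S1PR4-/- mice. H2-Oa, the DO α chain, had 389, 440, 451, 452 and 410 CPM against 110, 172 and 265 CPM as lowest, median and highest, with log2 fold changes of -1.24 (SE 0.17, adjusted p = 3.79e-05) and -1.42 (adjusted p = 3.4e-06). H2-Oa shares 321 exon bases with BC051537 on the opposite strand, which was at 1.86 CPM or lower in every group mean.

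Cd74 (chr18:60803848-60812652, plus strand), which encodes the invariant chain, went from 39309 ± 4101 CPM (n = 5) in WT non-GC B to 17476 ± 3772 CPM (n = 6) in WT GC B cells (log2 fold change -1.11, SE 0.14, adjusted p = 1.05e-05), and the S1PR4-/- difference was -1.28. Ciita had 877, 975, 1013, 816 and 703 CPM in WT non-GC B samples and 390, 495 and 568 CPM as lowest, median and highest in WT GC B samples. The groups of this regulator did not overlap either, with differences of -0.80 (SE 0.11, adjusted p = 2.55e-05) in WT and -0.70 (adjusted p = 0.000179) in S1PR4-/- mice.

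**Figure D2:**
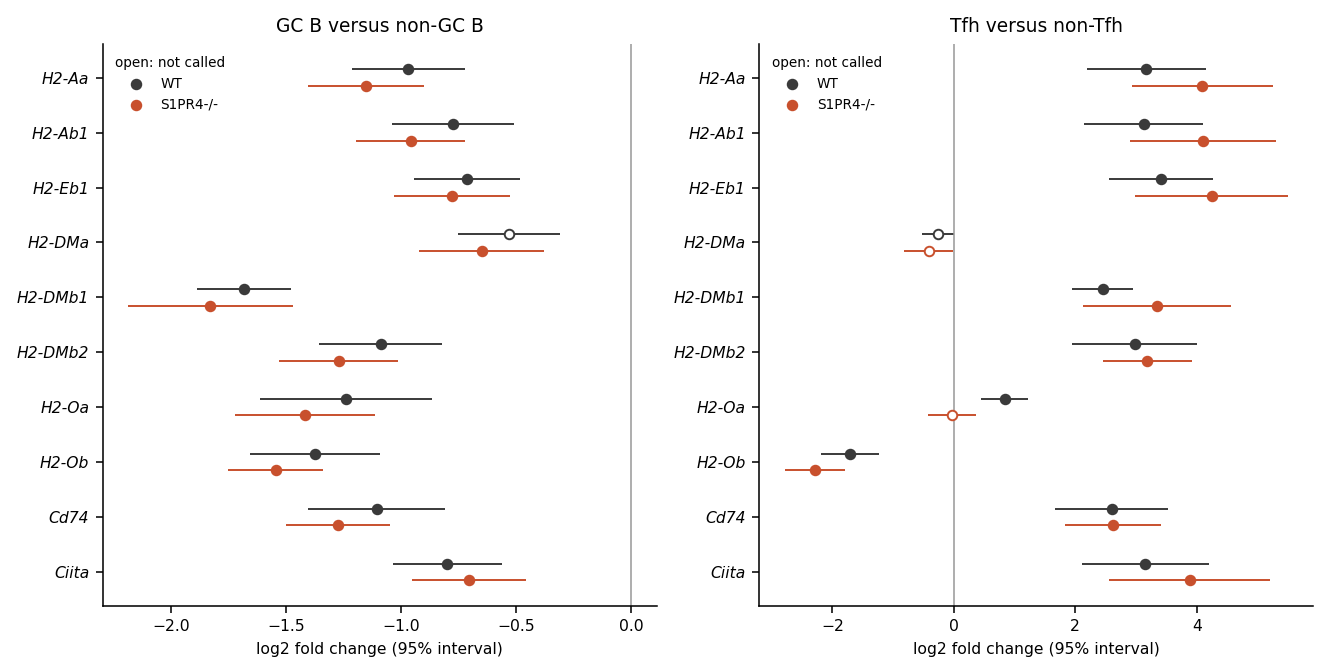
Log2 fold change of each of the 10 genes with its 95% interval, for GC B against non-GC B and for Tfh against non-Tfh cells in WT and S1PR4-/- mice. Filled points were called, open points were not. All values lie below 0 in the B cell comparisons (-0.53 to -1.69 in WT), whereas in the T cell comparisons H2-Ob lies below 0 (-1.71 in WT) and the class II chains above (3.12 to 3.41 in WT).

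In bulk samples such as these, fewer cells of a type and less RNA per cell cannot be told apart. All 6 plasma cell markers (Jchain, Sdc1, Mzb1, Derl3, Tnfrsf17 and Xbp1) were higher in WT GC B cells, with a median log2 fold change of 3.75, and 5 of 6 in S1PR4-/- mice. Their summed level was 439 to 757 CPM in WT non-GC B, 3982 to 8708 CPM in WT GC B and 2023 to 17626 CPM in S1PR4-/- GC B samples. General B cell markers moved with the class II genes, from 17103 to 18077 CPM in WT non-GC B cells to 7680 to 12588 CPM in WT GC B cells. The part of either in the class II difference was not tested.

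The lists of related genes stand beside 22.9% (WT) and 22.8% (S1PR4-/-) of all genes called lower, and no excess over these shares was tested. Of 7 X and Y box factors, Rfx5, a subunit of RFX, was lower in WT GC B cells (log2 fold change -0.62, adjusted p = 0.000536) and 0 were higher. Among S1PR4-/- samples 0 of 7 were called. Of 9 factors known to act on Ciita, 4 were lower in WT GC B cells, led by Ebf1, a B lineage factor (-1.39), and the interferon pathway factor Irf1 (-1.32). The 2 higher ones were Prdm1, which encodes the plasma cell repressor of Ciita (3.88), and Bcl6, the GC repressor (0.64). With S1PR4-/- samples 3 were lower, led by Irf1 (-1.68) and Ebf1 (-1.48), and the same 2 were higher (Prdm1 5.13, Bcl6 0.78).

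Beside 22.9% (WT) and 22.8% (S1PR4-/-) of all genes called lower, 3 of 10 endosomal genes were lower and 0 higher in both genotypes. They were Ctsl (-1.93 in WT, -2.47 in S1PR4-/-) and Ctss (-1.01 and -1.25), proteases of which Ctss trims the invariant chain in B cells, and Cd83 (-0.94 and -0.89), which steadies class II at the surface. In the class I list 4 genes were lower in WT GC B cells, led by the loading factor Tapbp (-0.98) and the heavy chains H2-K1 (-0.73) and H2-D1 (-0.73), and the immunoproteasome subunit Psmb8 was higher (0.61). The S1PR4-/- comparison had 5 lower, led by H2-K1 (-1.09), Tapbp (-1.07) and H2-D1 (-1.06), and Psmb8 was higher (0.59). These counts of 10 class I genes stand beside the same shares of all genes called lower.

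The second comparison placed the same genes in CD4 T cells. Against non-Tfh cells of WT mice, all 10 were higher in non-GC B cells, beside 19.7% of 13669 genes called higher, with log2 fold changes from 4.09 (H2-Ob, adjusted p = 3.28e-12) and 4.13 (H2-DMa, adjusted p = 2.92e-13) through 6.17 (H2-Oa) to 9.49 (Ciita, adjusted p = 1.01e-09). The other 6 lay between 7.97 and 9.24. H2-Ob and H2-DMa were thus the members with the smallest gap between B and T cells.

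In Tfh against non-Tfh cells the members split. In WT mice 8 were higher (background 22.8% of 13481 genes called higher) and H2-Ob was lower (background 20.3% called lower), while H2-DMa was not called. For S1PR4-/- mice 7 were higher (22.2% of 13390 genes) and H2-Ob was again lower (21%), while H2-DMa and H2-Oa were not called. The 8 and 7 genes called higher were also those whose Tfh samples all lay above all non-Tfh samples, and H2-Ob was the single member whose Tfh samples all lay below. Of 16200 genes, 42.0% in WT and 41.7% in S1PR4-/- mice had no overlap in either direction, beside the called shares above.

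The class II chains, Cd74 and Ciita were in the group that rose. H2-Aa had 3.14 at lowest, 12.9 at the median and 19.5 at highest in the WT non-Tfh samples, and 72.9, 87.7 and 172 CPM in the WT Tfh samples. This was a log2 fold change of 3.17 (SE 0.44, adjusted p = 4.86e-05) in WT and 4.09 (adjusted p = 2.25e-05) in S1PR4-/- mice. H2-Ab1 (3.12 and 4.10) and H2-Eb1 (3.41 and 4.24) were close to it. Cd74 had 76.0 CPM at the WT non-Tfh median and 453 at the WT Tfh median, with log2 fold changes of 2.60 (adjusted p = 0.000178) and 2.62 (adjusted p = 3.96e-05). Ciita was at 0.357, 0.94 and 2.64 CPM as lowest, median and highest in WT non-Tfh and at 4.76, 9.42 and 21.8 CPM in WT Tfh samples. Its log2 fold changes were 3.16 (SE 0.49, adjusted p = 5.39e-05) and 3.88 (adjusted p = 7.8e-05). Dexi, on the opposite strand, shares 329 exon bases with Ciita (3.45% of its exons) and had group means of 24.6 to 54.3 CPM, so reads there cannot be told apart. The DM β chain genes H2-DMb1 (2.45 in WT, 3.35 in S1PR4-/-) and H2-DMb2 (2.98 and 3.19) rose too.

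H2-Ob went the other way. It had 74.6, 91.3 and 115 CPM as lowest, median and highest in WT non-Tfh samples, and 18, 27.6 and 41.7 CPM in WT Tfh samples. The S1PR4-/- values were 62.3, 67.3 and 81.5 CPM in non-Tfh and 7.87, 13.1 and 24.3 CPM in Tfh samples. The log2 fold change was -1.71 (SE 0.22, adjusted p = 1.23e-05) in WT and -2.29 (SE 0.23, adjusted p = 1.3e-06) in S1PR4-/- mice, so the non-Tfh samples were the higher ones throughout.

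H2-DMa did not pass the test in either genotype, and its T cell sorts overlapped. Its WT non-Tfh values were 39.3, 44.4 and 55.0 CPM as lowest, median and highest, and its WT Tfh values 30.1, 34.6 and 50.5 CPM, with a log2 fold change of -0.26 (SE 0.12, adjusted p = 0.0762). In S1PR4-/- mice it was -0.41 (adjusted p = 0.0639). Brd2, with which H2-DMa shares exon bases, had means of 286 CPM in WT non-Tfh and 234 CPM in WT Tfh cells. H2-Oa had 4.54 to 7.14 CPM in WT non-Tfh and 7.48 to 15.2 CPM in WT Tfh samples (log2 fold change 0.84, SE 0.18, adjusted p = 0.000879), and in S1PR4-/- mice the difference was -0.02 (SE 0.18, adjusted p = 0.914).

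Markers of B cells were also higher in the Tfh sort. In WT mice 11 of 12 were called higher, with a median log2 fold change of 2.75, and in S1PR4-/- mice 4 of the 9 tested. Their summed level was 14.6 to 58.4 CPM in WT non-Tfh, 11.5 to 23.0 CPM in S1PR4-/- non-Tfh, 151 to 487 CPM in WT Tfh and 152 to 294 CPM in S1PR4-/- Tfh samples, and no B cell marker was at 0 in all samples of a group. Cd22 was the largest part of the sum in Tfh cells (179 ± 40.9 CPM in WT, 194 ± 52.0 CPM in S1PR4-/-), and Cd79a, a chain of the B cell receptor, reached 1.64 to 47.1 CPM in WT Tfh and 0.0222 to 21.2 CPM in S1PR4-/- Tfh samples. In S1PR4-/- Tfh replicate 1 the sum was 209 CPM with Ms4a1 and Cd79a at 0.222 CPM together, so the sum does not follow each marker. All 5 plasma cell markers tested were higher in the Tfh sort of both genotypes as well. H2-Ob moved against the B cell and plasma cell markers, since it was higher in the non-Tfh sort where they were lower.

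Dendritic cell and macrophage markers were higher in WT Tfh cells for 7 of 10 tested and in S1PR4-/- Tfh cells for 5 of 8 tested. Their summed level was 9.68 to 15.3 CPM in WT non-Tfh, 8.66 to 14.6 CPM in S1PR4-/- non-Tfh, 15.3 to 38.9 CPM in WT Tfh and 10.8 to 109 CPM in S1PR4-/- Tfh samples, with Clec9a, a marker of cross-presenting dendritic cells, at 0 in all non-Tfh samples. The sample at 109 CPM, S1PR4-/- Tfh replicate 6, also had the highest H2-Aa (152 CPM) and H2-DMb1 (20.6 CPM) of its group. With these markers as a covariate H2-Ob in WT mice was -1.26 (adjusted p = 0.0785) and H2-DMb1 in S1PR4-/- mice 1.38 (adjusted p = 0.0991), neither of them called.

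With a covariate for the B cell markers, which themselves differed between the sorts, the members called in WT mice were not all the same. H2-Oa then had a log2 fold change of 0.35 (adjusted p = 0.241) and was no longer called, and H2-DMa was called lower at -0.69 (adjusted p = 0.000314) in WT and -0.84 (adjusted p = 0.000491) in S1PR4-/- mice. Leaving aside the 4 Tfh samples with the most B cell marker RNA (WT replicates 1, 2 and 3 and S1PR4-/- replicate 3) gave H2-Oa 0.44 (adjusted p = 0.0424), under the fold threshold.

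The level of each member was also set beside the level it would have if all of it came with RNA of the B lineage genes Ms4a1 and Cd79a in the proportion seen in WT non-GC B cells. This is a description only. In WT non-Tfh samples H2-Aa was 1.02 to 5.17 times that level (median 1.4), Cd74 1.18 to 3.79 times (median 2.18) and Ciita 0.57 to 4.05 times (median 1.07). H2-DMa was 23.5 to 231 times that level (median 78.5), H2-Ob 16.2 to 256 times (median 96.0) and H2-Oa 4.78 to 45.7 times (median 23.6). The S1PR4-/- non-Tfh samples had 0.195 to 2.49 CPM over these 2 genes, against 1.16 to 14.4 CPM in WT. There H2-Aa was 1.42 to 17.0 times that level (median 3.2), Cd74 2.3 to 41.2 times (median 8.05) and Ciita 0.0886 to 5.69 times (median 3.66). The same samples had H2-DMa at 145 to 1572 times (median 489) and H2-Ob at 102 to 996 times (median 300). H2-Oa was there at 32.1 to 439 times (median 123). The median multiples of H2-DMa and H2-Ob were the largest in non-Tfh samples of both genotypes. Those of H2-Aa, Cd74 and Ciita were near 1 in some WT non-Tfh samples and higher in others. Mean H2-DMa was 45.9 CPM in WT and 53.6 CPM in S1PR4-/- non-Tfh cells. Its larger multiples in S1PR4-/- samples thus rest mostly on less B lineage RNA, with Cd79a as low as 7 counts.

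In WT Tfh samples the medians were 3.64 for H2-Aa, 2.04 for Ciita, 12.3 for H2-DMa and 3.94 for H2-Ob, and single samples ranged widely (H2-Aa 1.12 to 19.5 times). In S1PR4-/- Tfh samples H2-Aa was 1.27 to 198 times that level (median 28.3). There H2-DMa was 9.4 to 848 times (median 110) and H2-Ob 1.98 to 136 times (median 17.6), so H2-Ob had the lower median than H2-Aa. The highest H2-Aa multiple rests on very little B lineage RNA. S1PR4-/- Tfh replicate 1 had 0.222 CPM over the 2 genes together and 55.5 CPM of H2-Aa.

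**Figure D3:**
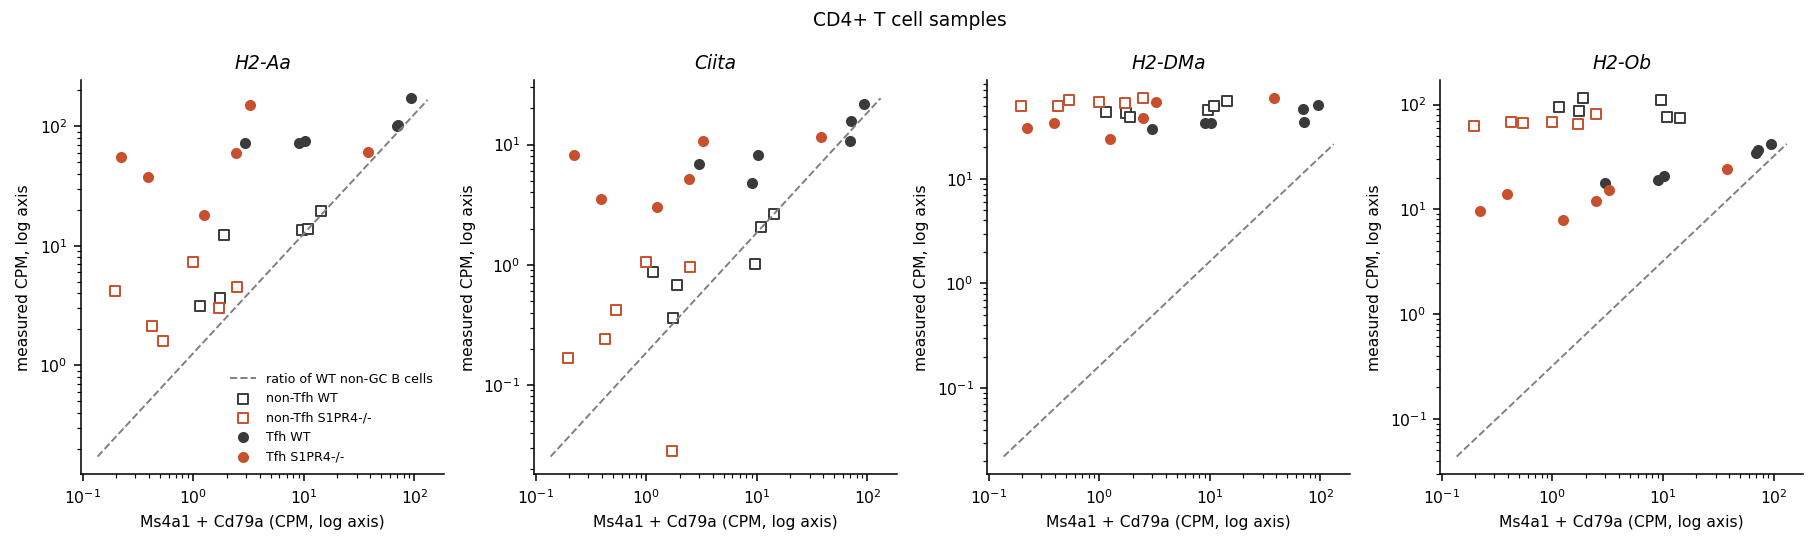
Measured CPM of H2-Aa, Ciita, H2-DMa and H2-Ob in each T cell sample (vertical, log axis) against the summed CPM of Ms4a1 and Cd79a (horizontal, log axis), with open squares for non-Tfh and filled circles for Tfh samples. The dashed line is the proportion in WT non-GC B cells. H2-DMa lies far above it in non-Tfh samples (median 78.5 times in WT and 489 times in S1PR4-/-), while H2-Aa lies closer to it (median 1.4 times in WT and 3.2 times in S1PR4-/-). Ms4a1 and Cd79a together had 1.16 to 14.4 CPM in WT and 0.195 to 2.49 CPM in S1PR4-/- non-Tfh samples.

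The lists of related genes were read in the same way, beside the shares of all genes called. Those were 22.8% (WT) and 22.2% (S1PR4-/-) called higher in Tfh cells, and 20.3% and 21% called lower. Of 7 X and Y box factors 0 were called between WT Tfh and non-Tfh cells, and in S1PR4-/- mice Nfyb, an NF-Y subunit, was higher (0.59). Of 9 factors known to act on Ciita, 6 were higher in WT Tfh cells, led by the B lineage factor Pax5 (5.23), the myeloid and B cell factor Spi1 (2.84) and Ebf1 (2.68), and Irf1 was lower (-0.84). Pax5 and Ebf1 are also among the B cell markers. Among S1PR4-/- samples 6 of the 8 tested were higher, led by Pax5 (5.92), Spi1 (3.16) and Bcl6 (1.89), and 2 were lower, led by Irf1 (-1.46).

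Of the endosomal genes 6 were higher in WT Tfh cells, led by the cathepsins Ctsh (3.01), Ctsz (1.49) and Ctsb (1.44), and Ctsd was lower (-0.86). The S1PR4-/- comparison had 7 higher, led by Ctsh (3.34), Ctsb (1.56) and the thiol reductase Ifi30, and Ctsd was lower (-0.82). In the class I list 3 of 10 genes were lower in both genotypes, beside 20.3% (WT) and 21% (S1PR4-/-) of all genes. They were H2-K1 (-0.67 in WT, -0.86 in S1PR4-/-), H2-D1 (-0.60 and -0.63) and Nlrc5, the class I counterpart of Ciita (-0.61 and -0.94).

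The relation of DO to DM was described through the ratio of H2-Ob to H2-DMa CPM. It was 1.97 ± 0.0465 (n = 5) in WT non-GC B and 1.09 ± 0.0772 (n = 6) in WT GC B cells. In T cells it was 2.08 ± 0.578 (n = 6) in WT non-Tfh and 0.73 ± 0.185 (n = 6) in WT Tfh cells. The ratio was thus lower in the GC B and Tfh sorts than in their non-GC B and non-Tfh counterparts, and the S1PR4-/- samples had 1.93 ± 0.183 in non-GC B, 1.04 ± 0.0722 in GC B, 1.28 ± 0.0816 in non-Tfh and 0.345 ± 0.0537 in Tfh cells. In Tfh cells the WT samples ranged from 0.555 to 1.04 and the S1PR4-/- samples from 0.284 to 0.415, without overlap. Overlap of other ratios was not counted. WT replicates 1, 2 and 3 had 0.748, 0.825 and 1.04, with 68.9, 94.0 and 71.7 CPM of Ms4a1 and Cd79a together. WT replicates 4, 5 and 6 had 0.555 to 0.609, with 2.97 to 10.3 CPM. S1PR4-/- replicate 3 had 0.415 with 38.3 CPM, and the other S1PR4-/- samples had 0.222 to 3.23 CPM. The part of B lineage RNA in this ratio was not tested. In non-Tfh cells the ranges were 1.36 to 2.92 and 1.19 to 1.38. These ratios were chosen after the values were seen and carry no test.

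**Figure D4:**
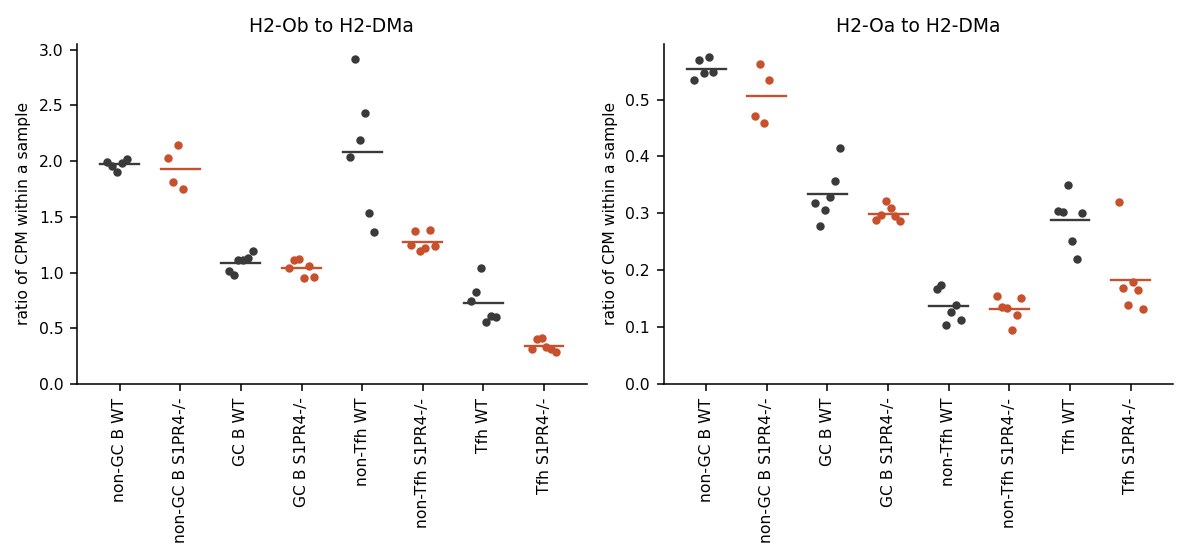
Ratio of H2-Ob to H2-DMa CPM (left) and of H2-Oa to H2-DMa CPM (right) in every sample of the 8 groups, where points are samples and the horizontal line is the group mean. The mean H2-Ob to H2-DMa ratio is 1.97 in WT non-GC B and 1.09 in WT GC B cells, and 0.73 in WT and 0.345 in S1PR4-/- Tfh cells. Ms4a1 and Cd79a RNA also differed between these Tfh samples.

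For H2-Oa to H2-DMa the means were 0.555 ± 0.017 in WT non-GC B and 0.333 ± 0.0469 in WT GC B cells, and 0.137 ± 0.0285 in WT non-Tfh and 0.288 ± 0.0457 in WT Tfh cells, so this DO chain followed H2-Ob in B cells and not in T cells. Among the chains, H2-Eb1 to H2-Aa was 0.719 ± 0.0322 in WT non-GC B and 0.858 ± 0.0285 in WT GC B cells. Cd74 to H2-Ab1 was 3.38 ± 0.0713 and 2.67 ± 0.163 in the same groups.

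The third comparison asked whether loss of S1PR4, a G protein-coupled receptor for sphingosine 1-phosphate, altered class II genes in each population. None of the 10 genes was called in any of the 4 populations, and for every member the WT and S1PR4-/- samples overlapped. Overlap was usual for any gene. Of 16200 genes, 0.191% in GC B, 1.56% in non-GC B, 1.6% in Tfh and 1.01% in non-Tfh cells had no overlap. The backgrounds were 0.0612% of 13070 genes called in GC B cells, 0.0614% of 13038 in non-GC B cells, 0.452% of 13495 in Tfh cells and 0.129% of 13197 in non-Tfh cells, so few genes of any kind passed. At an unadjusted p under 0.05, 3 members were counted in Tfh cells and 8 in non-Tfh cells, beside 19% and 11.2% of all genes tested, and 0 in each B cell sort. DESeq2 called 2 members in Tfh cells, 1 in non-Tfh cells (H2-DMb2) and 0 in the B cell sorts.

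In B cells the intervals were narrow. H2-Aa had 5744, 5772, 6128, 6472 and 5837 CPM in WT and 5247, 6418, 5667 and 6586 CPM in S1PR4-/- non-GC B samples. Over the 10 genes in non-GC B cells the log2 differences, S1PR4-/- minus WT, were -0.08 to 0.07, their 95% intervals lay within -0.31 to 0.25, and adjusted p were 0.985 to 0.999. In GC B cells they ran from -0.26 for H2-Oa (interval -0.64 to 0.12) to 0.04 for Ciita, with adjusted p of 0.993 to 0.997. Within the S1PR4-/- GC B group, H2-Aa was 2374, 2189 and 2209 CPM in replicates 1, 2 and 3 and 2912, 2857 and 2925 CPM in replicates 4, 5 and 6, with plasma cell markers at 5590, 8287 and 17626 CPM and at 2023, 2421 and 2048 CPM. H2-Aa split the same way in the WT GC B samples. There it was 2892, 2264 and 2424 CPM in replicates 1, 2 and 3 and 3257, 2993 and 3754 CPM in the others. The plasma cell markers of those WT samples were at 5096, 8708 and 4988 CPM and at 3982, 4155 and 4464 CPM. The cause of the split was not tested. With plasma cell markers as a covariate 0 members were called.

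In Tfh cells H2-Ob and H2-Oa, the DO chains, had the smallest p. H2-Ob had 34.5, 41.7, 36.5, 18.9, 20.8 and 18 CPM in the WT samples and 9.65, 14.0, 24.3, 7.87, 12.1 and 15.3 CPM in the S1PR4-/- samples. Replicate 3 of the S1PR4-/- samples lay within the WT range and the others below it. The log2 difference was -1.04 (SE 0.30, interval -1.69 to -0.39, adjusted p = 0.0899). H2-Oa had 14.1, 15.2, 12.2, 8.6, 7.48 and 9.07 CPM in WT and 9.78, 5.78, 8.11, 4.28, 6.33 and 7.04 CPM in S1PR4-/- samples, a difference of -0.70 (SE 0.21, interval -1.15 to -0.24, adjusted p = 0.0957). Both passed under DESeq2 (adjusted p = 0.0275 for H2-Ob and 0.0249 for H2-Oa), and both are on a list that the study drew from these samples, so their direction is not independent of it.

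The WT Tfh samples with the most H2-Ob and H2-Oa, replicates 1, 2 and 3, were also those with the most B cell marker RNA (436, 487 and 434 CPM, against 151, 231 and 202 CPM in replicates 4, 5 and 6). Between the genotypes these markers had a median log2 difference of -2.21, with 0 of 12 called and 3 at an unadjusted p under 0.05, and 2 of 5 plasma cell markers were lower in S1PR4-/- mice. With the B cell markers as a covariate the difference was -0.27 (adjusted p = 0.647) for H2-Ob and -0.35 (adjusted p = 0.701) for H2-Oa. Without the 4 Tfh samples with the most B cell marker RNA it was -0.71 (adjusted p = 0.336) and -0.34 (adjusted p = 0.666). H2-DMb2 went from -1.06 (SE 0.41, adjusted p = 0.195) to -0.02 with the covariate. The remaining members had differences of -0.77 (Cd74, adjusted p = 0.342) to 0.14 (H2-DMb1), with H2-Aa at -0.63 (SE 0.44, adjusted p = 0.48).

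In non-Tfh cells the chains had larger differences and wide spread. H2-Aa had 3.65, 12.3, 3.14, 13.5, 13.9 and 19.5 CPM in WT and 4.18, 2.14, 1.61, 3.05, 4.54 and 7.28 CPM in S1PR4-/- samples, a log2 difference of -1.54 (adjusted p = 0.224). H2-Ab1 (-1.55, adjusted p = 0.234), H2-Eb1 (-1.34, adjusted p = 0.273), H2-DMb2 (-1.25, adjusted p = 0.211) and Ciita (-1.40, adjusted p = 0.432) had differences of like size. The B cell markers had a median difference of -2.36 here, with 0 of 7 tested called and 5 at an unadjusted p under 0.05, and 1 of 5 plasma cell markers was lower. With them as a covariate H2-Aa was -0.45 (adjusted p = 0.869), H2-Ab1 -0.38 and H2-DMb2 0.07.

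H2-Ob and H2-DMa in non-Tfh cells had small differences with little spread. H2-Ob had 87.0, 115, 95.6, 110, 76.5 and 74.6 CPM in WT and 62.3, 67.6, 67.1, 64.6, 81.5 and 67.5 CPM in S1PR4-/- samples, where a single S1PR4-/- sample reached the WT range. Its difference was -0.44 (SE 0.11, adjusted p = 0.11), and with the B cell markers as a covariate -0.52 (adjusted p = 0.298). H2-DMa differed by 0.22 (adjusted p = 0.328) in the other direction, and by 0.44 (adjusted p = 0.0679) with the covariate.

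**Figure D5:**
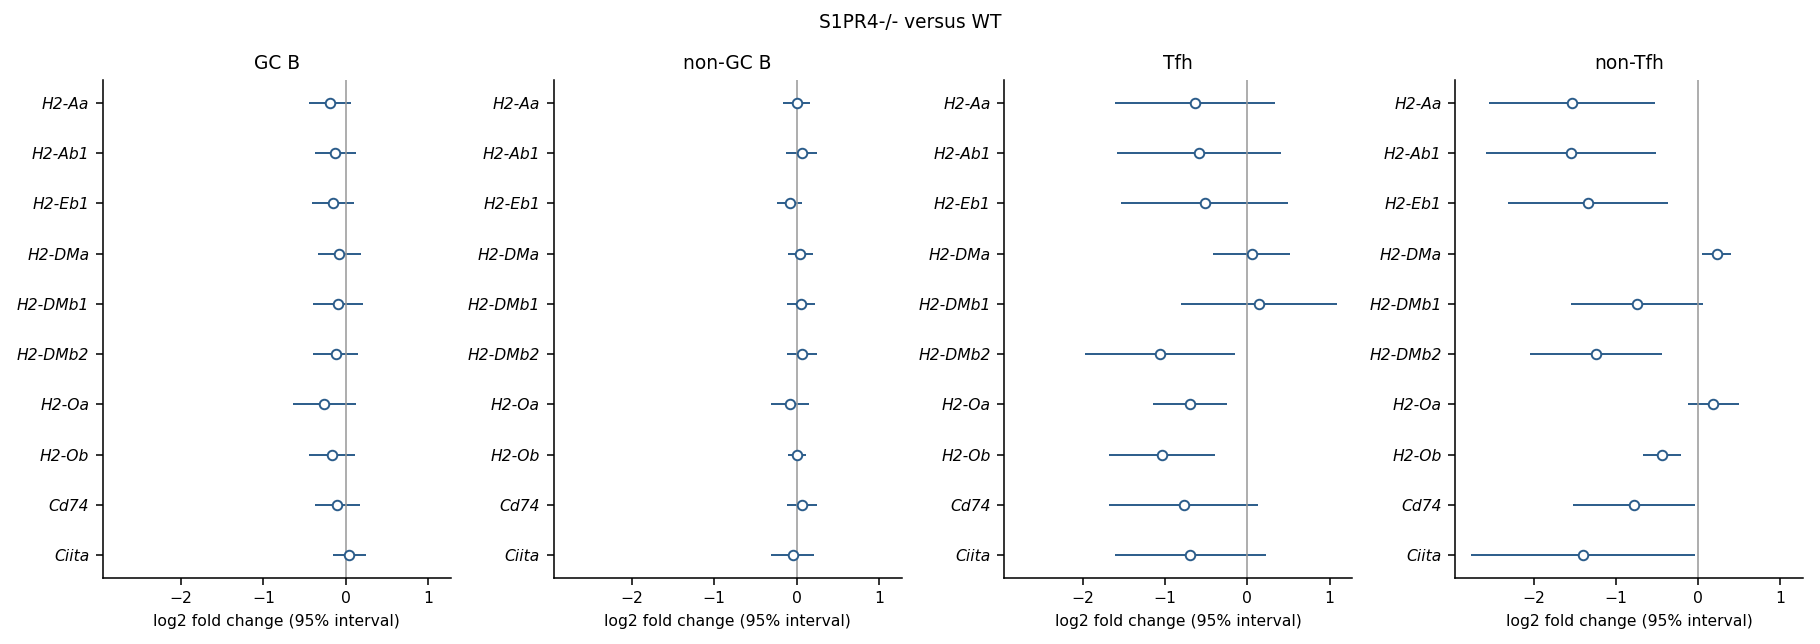
Log2 difference (S1PR4-/- minus WT) of each of the 10 genes with its 95% interval in GC B, non-GC B, Tfh and non-Tfh cells. Every point is open, since none was called. Intervals are narrow in non-GC B cells (within -0.31 to 0.25) and wide in T cells, where H2-Ob in Tfh cells is at -1.04 (-1.69 to -0.39).

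Whether the genotype difference itself differed between paired populations was tested as an interaction. For the B cell sorts 0 members passed in edgeR or DESeq2 and 0 had an unadjusted p under 0.05, with estimates of -0.18 to 0.10 and an adjusted p of 1, beside 0% of 14490 genes. For the T cell sorts 0 members passed in either tool, beside 0.0139% of 14401 genes. H2-Oa was the 1 member there at an unadjusted p under 0.05, with an interaction of -0.88 (SE 0.27, interval -1.43 to -0.33, adjusted p = 0.291), and H2-Ob had -0.60 (adjusted p = 0.593). The X and Y box, Ciita factor, endosomal and class I lists had 0 genes called between genotypes in every population.

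The members tracked each other closely, which is given as a description. Over the 45 samples the correlation (Pearson's r of log2 CPM) of a member with the mean of the others was 0.998 for Cd74 and 0.94 for H2-DMa, and lowest for H2-Ob at 0.818. Within the 21 B cell samples, as deviations from group means, r was 0.732 (Ciita) to 0.979 (H2-DMa), and within the 24 T cell samples 0.465 (H2-Ob) to 0.929 (H2-Ab1). Samples of a group share their sort and its day.

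The genes outside the members that followed their mean most closely over all 45 samples were Unc93b1 (r = 0.993), Ly86 (0.993), Dok3 (0.992), Kmo (0.992) and Lyn (0.992). Within B cell groups they included Lat2 (0.929), Rac2 (0.921), Pdlim2 (0.908) and Rbck1 (0.9). Within T cell groups they were Siglecg (0.824), Ly86 (0.783), Ccdc30 (0.772), Lyn (0.768) and Fcmr (0.747), the last of which is among the B cell markers.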

How the data were processed

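The authors deposited a table of RSEM expected counts per gene for 45 samples. Per the labels, reads were processed with cutadapt 2.10, STAR 2.5.3, Picard and RSEM 1.3.0 on mm10, and DESeq2 is listed. Libraries were made from mRNA with a stranded kit, and the strand setting of RSEM is not given in the sources used here. The table's 55450 genes match GENCODE M21, from which positions and exon lengths were taken, whereas the study's methods name a later release. Of its values 8.83% were not whole, and expected counts were rounded to whole numbers. Totals were 26299429 to 45548215 per sample, and precision at low counts is limited by counting error.

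Each comparison was fitted in edgeR 4.0.16 (R 4.3.3) with TMM, filterByExpr and the robust quasi-likelihood F test on the groups compared, and p-values were adjusted by Benjamini-Hochberg over all genes tested. A call needed an FDR below 0.05 together with more than 1.5-fold change, an interaction the FDR alone. DESeq2 1.42.0, other scaling, no filter, the replicate number as a block, all groups in one fit, and leaving out each sample were alternatives. Covariates were marker scores, the mean log2 CPM (prior count 2) of a marker list. The dendritic cell and plasma cell covariates and the fits leaving aside 4 Tfh samples were added after seeing the data. Scripts were tested on simulated data. All 10 members were named throughout, and from each list the genes called with the largest fold change, at most 3 per direction, and the 5 genes most like the members. A few genes that this rule would name are not reported here. The members and lists were chosen with earlier results of these data known.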

Additional observations from a re-analysis of the deposited data

Results flagged for a closer look

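H2-Ob in S1PR4-/- non-Tfh cells had 1 sample apart from the others. Replicate 5 was at 81.5 CPM, while the other samples of that group lay between 62.3 and 67.6 CPM, a gap of 0.696 of the group's range on the log2 CPM scale. It was the only such case among 80 combinations of a member and a group, where chance alone would give about 4.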

How the results depend on the processing

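Counts of called members moved in few settings. For S1PR4-/- against WT in Tfh cells the count of 0 became 2 under DESeq2 and 2 with all groups in one fit, H2-Oa and H2-Ob both times (adjusted p = 0.0443 and 0.00236 in the latter), and 0 to 1 when samples were left out in turn, the 1 being H2-Ob without S1PR4-/- replicate 3 (log2 difference -1.27, adjusted p = 0.0375). In non-Tfh cells DESeq2 called 1, H2-DMb2 (-1.25, adjusted p = 0.0468). The cause was not tested. Leaving out each sample kept the counts at 9 and 10 for GC B against non-GC B and 9 and 8 for Tfh against non-Tfh cells (WT and S1PR4-/-), and at 0 in the other genotype comparisons and the interactions. For non-GC B against non-Tfh cells leaving out samples was not run.

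Over 1650 values of single members under an alternative, 10 newly passed the thresholds, 7 no longer did, and 33 changed sign, none of them of a member called in the comparison as reported. With all groups in one fit, H2-Eb1 (adjusted p = 0.0568 in WT, 0.0504 in S1PR4-/-) and, in S1PR4-/- mice, Ciita (0.0518) were not called lower in the GC B sort. The replicate numbers were not taken to pair samples, and the labels do not say whether equal numbers mark the same mouse. Correlations of same-numbered samples' deviations ran from -0.0452 to 0.2054. In S1PR4-/- mice 6 of 6 T cell pairs and 0 of 4 B cell pairs correlated best with their own number. In WT mice 4 of 6 T cell pairs and 4 of 5 B cell pairs did, so a pairing by number was not excluded. With the replicate number as a block, counts were 10 (WT) and 10 for GC B against non-GC B, 9 and 8 for Tfh against non-Tfh, 10 for non-GC B against non-Tfh, and 0 between genotypes.

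Over all genes, S1PR4-/- against WT gave 61 calls in Tfh cells, but 184 under DESeq2, 144 with all groups in one fit, 13 with the B cell marker covariate and 12 leaving aside 4 samples. In non-Tfh cells 17 became 56 under DESeq2, while 8 became 14 for GC B cells and 8 became 16 for non-GC B cells. T cell levels of Ciita and H2-DMb1, at few CPM, are the least precise.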
